A study of Mus musculus with 2 samples.

Results

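The genes described here make 2 abundant annotated transcripts that share their first and last introns and differ in splicing only between them. To find them, a gene had to have at least 2 annotated spliced transcripts with 20 or more reads each in each of 2 long-read RNA libraries. The 2 transcripts with the most summed reads were paired, and a gene was kept where the first and the last introns of the pair were the same while the introns between them differed. Of 15631 annotated genes with at least 1 read, 207 had such a pair, and 58 of the 207 (28.02%) differed inside only. In the other genes the first intron differed (105 genes), the last intron differed (40 genes) or both did (4 genes). The members were thus chosen by their reads in these 2 libraries, so the number of members and the levels of their transcripts are given as a description, with no test. The rule does not compare the outer ends of the first and last exons: in 55 of the 58 pairs the annotated lengths also differed outside the internal event, by a median of 98.5 nt over the 58 genes, and the part of these ends in how reads were assigned was not tested.

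The study sequenced RNA from the gastrocnemius, the large calf muscle, of male mice of the B6CASTF1/J hybrid strain at 10 days of age. It holds 1 group of 2 libraries, which the labels call biological replicates 1 and 2 and describe as separately numbered males under a single donor identifier, each made from 2 µg of RNA, with no treatment, no control group and no other tissue. The libraries gave 1172413 and 957529 assigned reads, of which 1145490 and 941841 were from mouse genes rather than added spike-in RNA, and the 58 pairs held 2.157% and 1.958% of the mouse reads. Markers of skeletal muscle were abundant in both: skeletal actin Acta1 stood at 78414 and 91770 counts per 1000000 mouse reads (CPM), and muscle creatine kinase Ckm at 49770 and 60459 CPM. Since the only contrast is 1 library with the other, the p-values below compare these 2 libraries and no conditions, and the 95% Wilson intervals cover counting error only.

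As background, an internal difference arises when the splicing machinery chooses between sites within a pre-mRNA whose outer ends are spliced the same way. A cassette exon is kept or skipped whole, mutually exclusive exons replace each other, an alternative donor or acceptor lengthens or shortens an exon at its end or at its start, and a retained intron stays in the message. A difference whose length is a multiple of 3 keeps the reading frame, and skeletal muscle is known for switching many such exons as it matures after birth. Each of the 58 pairs held exactly 1 internal event. There were 22 genes with a single cassette exon, 21 with an alternative acceptor, 6 with an alternative donor, 4 with mutually exclusive exons, 2 with a retained intron, 2 with a cassette exon joined to an acceptor shift, and 1 with several exons skipped together.

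The mutually exclusive exons of Pkm and Slc25a3 are shown first, because here each form swaps 1 coding exon for a related one, and the exons of Acp1 because its 2 forms were near equal in reads. Pkm encodes the muscle-type pyruvate kinase of glycolysis, Slc25a3 the mitochondrial phosphate carrier and Acp1 the low-molecular-weight phosphotyrosine phosphatase. Sequences are from the GENCODE M21 transcripts (mm10), 5′ to 3′ along the transcript, with the alternative exon in capitals and 12 bases of each neighbouring exon in lower case.
Pkm-202 (chr9:59675029-59675195, plus strand): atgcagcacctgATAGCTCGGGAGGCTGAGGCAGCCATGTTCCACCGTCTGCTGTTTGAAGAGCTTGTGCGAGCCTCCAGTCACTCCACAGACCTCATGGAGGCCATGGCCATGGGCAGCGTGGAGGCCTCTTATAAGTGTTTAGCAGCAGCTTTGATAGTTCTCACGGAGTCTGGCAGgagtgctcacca
Pkm-201 (chr9:59675568-59675734, plus strand): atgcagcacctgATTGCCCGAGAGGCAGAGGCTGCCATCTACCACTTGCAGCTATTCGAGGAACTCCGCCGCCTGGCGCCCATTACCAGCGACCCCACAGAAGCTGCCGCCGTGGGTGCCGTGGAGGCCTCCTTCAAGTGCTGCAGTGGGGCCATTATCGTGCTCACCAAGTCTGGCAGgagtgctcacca
Slc25a3-206 (chr10:91122207-91122331, minus strand): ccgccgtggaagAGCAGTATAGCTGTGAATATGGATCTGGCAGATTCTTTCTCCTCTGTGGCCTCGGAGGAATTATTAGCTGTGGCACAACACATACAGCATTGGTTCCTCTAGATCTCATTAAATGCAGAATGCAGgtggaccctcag
Slc25a3-201 (chr10:91121922-91122043, minus strand): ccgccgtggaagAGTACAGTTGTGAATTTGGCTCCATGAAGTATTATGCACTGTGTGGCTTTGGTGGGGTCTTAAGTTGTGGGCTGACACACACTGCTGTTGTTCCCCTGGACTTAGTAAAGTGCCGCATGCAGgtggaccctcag
Acp1-201 (chr12:30904870-30904983, minus strand): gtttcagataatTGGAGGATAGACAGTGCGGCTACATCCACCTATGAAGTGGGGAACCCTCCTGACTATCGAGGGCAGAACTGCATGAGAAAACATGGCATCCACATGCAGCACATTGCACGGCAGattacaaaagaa
Acp1-202 (chr12:30904718-30904831, minus strand): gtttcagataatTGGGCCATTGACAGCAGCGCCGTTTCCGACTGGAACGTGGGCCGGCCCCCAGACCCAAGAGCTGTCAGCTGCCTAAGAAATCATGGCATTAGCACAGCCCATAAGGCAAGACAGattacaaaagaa
In each gene the lower-case flanks are the same in both forms, since the exons on either side are shared.

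Of the 12 acceptor shifts of 3 bases, 11 are shown because these bases are the whole difference in splicing between the 2 transcripts. Capitals mark the 3 bases that the longer form carries and the shorter form lacks, between 12 bases of the upstream exon and 12 bases that both forms share downstream.
Sgta-201 (chr10:81051084-81051086, minus strand): acttccagcaagCAGgagatgccacag
Mrps10-203 (chr17:47372573-47372575, plus strand): tggcctcgcgctCAGtgccagtatgaa
Trim47-201 (chr11:116107004-116107006, minus strand): tcggctcagaagCAGatgtggagtccc
Fxyd6-201 (chr9:45390634-45390636, plus strand): tcctggcgagtgCAGctgagaaggaga
Usp10-210 (chr8:119941110-119941112, plus strand): aactgccagatgCAGgacaggagcacc
Fkbp8-201 (chr8:70531522-70531524, plus strand): cccccagggcagCAGgagcccatacat
Map2k2-207 (chr10:81121043-81121045, plus strand): gccccatcagtgTAGgtcatgggatgg
Tapbp-201 (chr17:33926627-33926629, plus strand): taggctggctggTAGctgcctactgga
Gspt1-201 (chr16:11239097-11239099, minus strand): cagaacctgttgTAGaaaatggagaga
Rbm3-203 (chrX:8143330-8143332, minus strand): ctacagtggcagAAGccagggtggcta
Uchl5-206 (chr1:143799921-143799923, plus strand): caacttgcagagGAGgaacccatggat
Each of the 12 added triplets ends in AG, the bases of an acceptor site, so the shorter form begins right after an AG. The triplet was CAG in 7 genes, TAG in 3, AAG in Rbm3 and GAG in Uchl5. Over all 21 alternative acceptors, the added stretch ended in AG in 21, and over the 6 alternative donors it began with GT in 6.

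The events below are those that later values turn on: the cassette exon of Smyd1, whose share differed between the libraries, the 2 shortest cassette exons (Anxa6 and Mars), the combined event of Gnas, the donor shift of Cnbp, the frame-changing acceptor of Vegfb and the retained intron of Map7d1. Capitals mark the bases found in the named transcript and not in its partner.
Smyd1-201 (chr6:71235343-71235381, minus strand): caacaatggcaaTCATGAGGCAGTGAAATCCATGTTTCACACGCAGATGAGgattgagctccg
Anxa6-202 (chr11:54987051-54987068, minus strand): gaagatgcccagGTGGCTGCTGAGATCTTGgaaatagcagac
Mars-206 (chr10:127296717-127296740, minus strand): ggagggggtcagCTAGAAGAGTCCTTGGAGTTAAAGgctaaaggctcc
Gnas-208 (chr2:174336747-174336791, plus strand): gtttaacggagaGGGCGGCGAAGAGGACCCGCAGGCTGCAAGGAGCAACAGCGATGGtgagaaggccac
Gnas-207 (chr2:174341650-174341652, plus strand): gtttaacggagaTAGtgagaaggccac
Cnbp-208 (chr6:87845656-87845676, minus strand): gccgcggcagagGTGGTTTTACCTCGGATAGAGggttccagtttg
Vegfb-201 (chr19:6985496-6985596, minus strand): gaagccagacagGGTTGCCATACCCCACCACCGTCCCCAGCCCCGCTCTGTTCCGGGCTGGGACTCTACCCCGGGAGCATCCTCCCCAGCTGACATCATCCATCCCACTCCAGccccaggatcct
Map7d1-201 (chr4:126237060-126237155, minus strand): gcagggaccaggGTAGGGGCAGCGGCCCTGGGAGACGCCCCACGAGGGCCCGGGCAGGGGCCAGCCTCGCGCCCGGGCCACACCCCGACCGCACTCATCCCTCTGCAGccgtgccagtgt
The capitals of Map7d1 begin with GT and end with AG, as a spliced-out intron does.

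The transcript of a pair with fewer summed reads is called the second here. In 9 of the 58 genes it nonetheless held over 50% of the pair in 1 of the libraries. Its median share was 40.34% of the pair's reads over the 58 genes (mean of the 2 libraries for each gene), from 3.738% in Pkm to 49.93% in Serbp1. Within each library the median was lower, at 38.35% and 37.19% (replicates 1 and 2). The second share was 40% or more in 30 genes, between 10% and 40% in 22 and under 10% in 6. The 6 genes with 1 dominant form were Pkm, Acadvl, Mfn2, Slc25a3, Cfl2 and Ndrg2, and 4 of them are in the list of genes of energy metabolism and mitochondria. Side by side and with no test, the median second share was 30.75% in the 105 genes whose first intron differed, 33.28% in the 40 whose last intron differed and 33.01% over all 207 pairs. Within replicates 1 and 2 these medians were 30.65% and 30.67%, 33.90% and 34.75%, and 33.51% and 32.73%, in the same order of groups. A share of 40% or more was found in 51.72% of the genes that differed inside only and in 33.82% of all pairs. The median number of reads per pair was 298 and 350, in that order. The minimum of 20 reads also bounds these shares, since a pair with few reads passes only where its forms are near even. Uchl5, with 85 pair reads, stood at 49.45%, while the 6 genes under 10% had 889 pair reads (Mfn2) or more. The part of this limit in the differences between kinds of pair was not tested. Together the 2 chosen transcripts held a median of 81.47% of all reads of their gene, from 24.47% in Map7d1 to 96.28% in Rbm42.

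**Figure D1:**
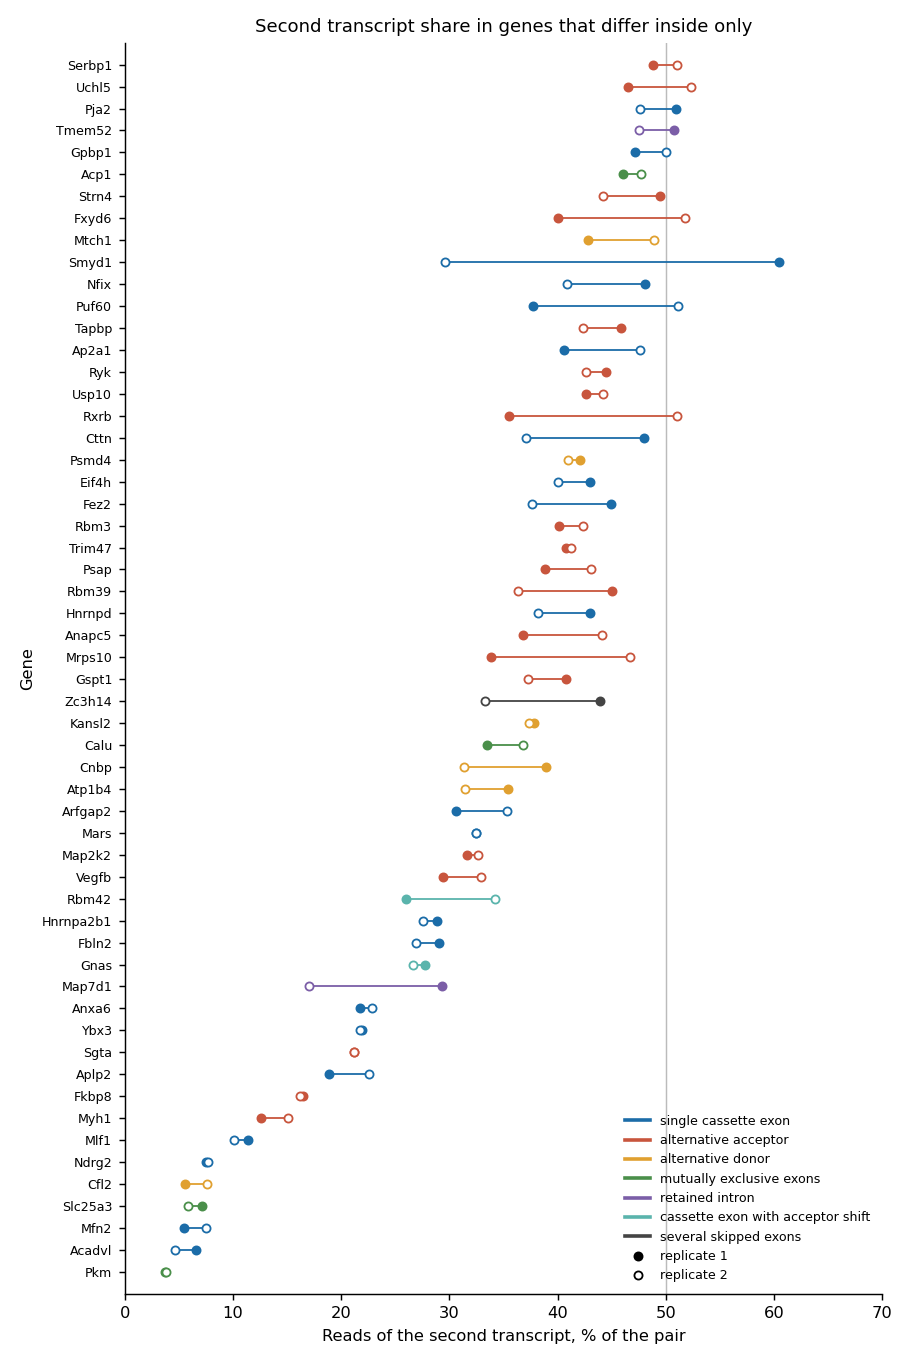
Share of the second transcript among the reads of the pair (x axis, %) for 56 of the 58 genes (y axis, ordered by the mean), with replicate 1 as filled and replicate 2 as open circles joined by a line and coloured by event type. The shares run from 3.738% in Pkm to 49.93% in Serbp1, and the longest line belongs to Smyd1.

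The 4 pairs of mutually exclusive exons spanned nearly the whole range of shares. In Pkm, Pkm-202, which carries the exon of the M1 form typical of adult muscle, had 4837 and 3703 reads (replicates 1 and 2), and Pkm-201, with the exon of the M2 form of growing tissues, had 185 and 146. Pkm-201 was low in both libraries, at 3.738% ± 0.0774 of the pair (SD, n = 2). In Slc25a3, Slc25a3-206, with the exon known from heart and skeletal muscle, had 806 and 836 reads, and Slc25a3-201, with the exon used in most tissues, had 62 and 52, or 6.499% ± 0.910. Thus in each gene the form known from muscle was the high one in both libraries. Calu, a calcium-binding protein of the secretory pathway, divided its reads less unevenly, with 123 and 84 reads for Calu-201 and 62 and 49 for Calu-202 (35.18% ± 2.35). Acp1 was near equal, with 48 and 46 reads for Acp1-201 and 41 and 42 for Acp1-202 (46.90% ± 1.17). The exclusive exons have the same length in Pkm (167 nt), Calu (194 nt) and Acp1 (114 nt), and Slc25a3-206 has 125 nt where Slc25a3-201 has 122. Aligned end to end, the paired exons were identical at 63.91% of aligned positions in Pkm, 63.49% in Slc25a3, 66.67% in Calu and 58.62% in Acp1.

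The 22 single cassette exons were 18 to 207 nt long, with a median of 73.5 nt, and the form with the exon was the more abundant one in 15 genes. The list of genes of energy metabolism and mitochondria holds 5 members, and 2 of those have a cassette exon and a low second share. Acadvl is the very-long-chain acyl-CoA dehydrogenase of fatty acid oxidation, and its form with a 66-nt coding exon had 495 and 622 reads against 35 and 30 without it. Mfn2, a mitofusin that joins mitochondria, differed by an 83-nt exon of the 5′ UTR, with 539 and 295 reads against 31 and 24. In both genes the exon was thus nearly always kept, and the form that lacks it held 5.603% ± 1.42 in Acadvl and 6.481% ± 1.47 in Mfn2 (SD, n = 2). The other 3 members of the list are Pkm and Slc25a3 (above) and Mtch1 (below).

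Other cassette exons were mostly kept as well. Ndrg2, a stress- and differentiation-related gene of muscle and brain, had 570 and 604 reads with its 42-nt exon and 46 and 50 without it. Mlf1, first known from myeloid leukaemia and abundant in muscle, had 406 and 474 reads with a 45-nt exon and 52 and 53 without it. Aplp2, a relative of the amyloid precursor protein, had 142 and 103 reads with the 168-nt exon of its Kunitz-type protease inhibitor domain and 33 and 30 without it. The form without the exon thus stood at 7.556% ± 0.126, 10.71% ± 0.917 and 20.71% ± 2.62 in these genes, low in both libraries. The 2 shortest cassette exons were also mostly kept. Anxa6, a membrane-binding annexin, had 327 and 267 reads with its 18-nt exon and 91 and 79 without it, and Mars, the cytosolic methionyl-tRNA synthetase, had 54 and 50 reads with its 24-nt exon and 26 and 24 without it. The skipping share differed between the libraries by about 1 point or less in both (21.77% and 22.83% in Anxa6, 32.50% and 32.43% in Mars).

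In 7 genes the form without the cassette exon was the more abundant. Ybx3, a cold-shock-domain protein that binds RNA and DNA, had the longest cassette exon, 207 nt, with 931 and 788 reads without it and 261 and 219 with it. The exon was therefore carried by 21.82% ± 0.105 of the pair, with nearly the same value in each library. Eif4h, a translation initiation factor, had 188 and 147 reads without a 60-nt exon and 142 and 98 with it. Arfgap2, a GTPase-activating protein of Golgi vesicle traffic, had 129 and 106 reads without a 42-nt exon and 57 and 58 with it. Nfix, a nuclear factor of the fetal muscle programme, had 69 and 39 reads without a 123-nt exon and 64 and 27 with it. Pja2, a ubiquitin ligase, had 106 and 77 reads without a 186-nt exon and 110 and 70 with it, so that the form with more reads changed from library to library. The other 2 genes of this kind, Fez2 and Fbln2, were named after their values were seen, and their exon was carried by 41.27% and 27.98% of the pair.

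Smyd1, a muscle methyltransferase that helps myosin fold, is described with the library comparison. The list of genes of RNA binding and splicing holds 4 members among its 60 genes, and 2 of these have cassette exons in the region that codes for the glycine-rich C-terminal part of the protein. Hnrnpa2b1 had 153 and 108 reads with its 120-nt exon and 62 and 41 without it, and Hnrnpd, known as AUF1, had 49 and 47 reads with its 147-nt exon and 37 and 29 without it. The skipping form held 28.18% ± 0.934 in Hnrnpa2b1 and 40.59% ± 3.44 in Hnrnpd. Ap2a1, a large subunit of the endocytic adaptor AP-2, had 63 and 33 reads with a 66-nt exon and 43 and 30 without it. Cttn, an actin-binding scaffold, had 39 and 39 reads with a 111-nt exon that adds a cortactin repeat and 36 and 23 without it. Gpbp1, a promoter-binding protein, had 28 and 35 reads with its 60-nt exon and 25 and 35 without it, so that in replicate 2 the forms tied. Puf60, a splicing factor outside the lists, had 117 and 86 reads with a 51-nt exon and 71 and 90 without it.

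The lengths of the cassette exons are set beside those of exons in general, as a description with no test. Of the 22, 21 (95.45%) were a multiple of 3, and so were all 20 that lie in coding sequence. Among 23984 internal exons of all annotated spliced transcripts with 20 or more reads in each library, 9354 (39.00%) were a multiple of 3, with a median length of 116 nt. Exons of 30 nt or less were 2 of the 22 cassette exons and 148 (0.617%) of all internal exons.

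**Figure D2:**
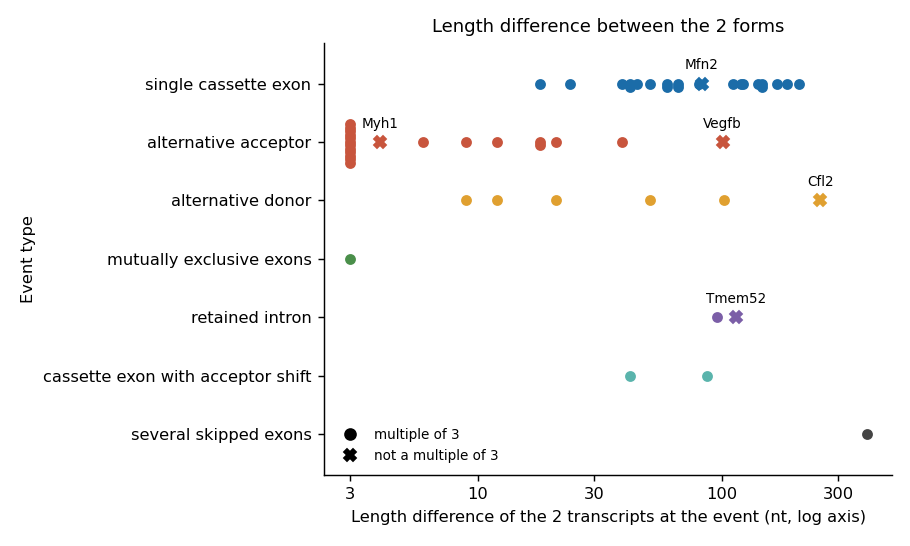
Length difference between the 2 forms at the event (x axis, nt, log scale) for each gene, by event type (y axis), with circles for multiples of 3 and crosses for other lengths. The 5 crosses are Myh1, Mfn2, Vegfb, Cfl2 and Tmem52; of the mutually exclusive exons Slc25a3 alone is drawn, since the other 3 pairs have equal lengths.

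Alternative acceptors differed by a median of 3 nt (range 3 to 101 nt) and had a median second share of 41.01%. In the 12 genes with a 3-base shift, the longer form held from 21.21% of the pair in Sgta to 83.65% in Fkbp8, with a median of 47.54%, and it was the more abundant form in 5. Fkbp8, a membrane-bound immunophilin, had 213 and 191 reads for the longer form and 42 and 37 for the shorter. Sgta, a co-chaperone for tail-anchored proteins, had the opposite order, with 52 and 46 reads for the longer form and 193 and 171 for the shorter. Both genes add the same triplet, CAG, and their longer shares lay at the 2 ends of the range in both libraries. Map2k2, the kinase MEK2, had 91 and 68 reads with its added TAG and 197 and 140 without. Gspt1, a translation termination factor, had 32 and 37 reads with its TAG and 22 and 22 without, a longer share of 60.99% against 32.14% in Map2k2. The same triplet stood beside high and low shares alike: the longer share ran from 21.21% to 83.65% over the 7 genes with CAG and from 32.14% to 60.99% over the 3 with TAG.

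The remaining 3-base shifts lay nearer to equal use. Uchl5, a deubiquitinase of the proteasome, had 23 and 20 reads for the longer form and 20 and 22 for the shorter. Usp10, another deubiquitinase, had 39 and 29 reads for the longer form and 29 and 23 for the shorter. Tapbp, the peptide-loading factor tapasin, had 26 and 34 reads for the longer form and 22 and 25 for the shorter. Intervals of these 3 genes reached across 50% in each library, so neither form can be called the higher. Rbm3, a cold-inducible RNA-binding protein, Fxyd6, a regulator of the sodium pump, Trim47, a ubiquitin ligase, and Mrps10, a protein of the mitochondrial ribosome, carried the longer form in 41.26%, 45.90%, 41.01% and 40.26% of the pair. How exactly reads were placed at acceptors 3 bases apart was not tested. Nor was it tested whether the parental genomes of these hybrid mice differ at such sites. Genes of this group that fall outside the rule for named genes were named after their values were seen.

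**Figure D3:**
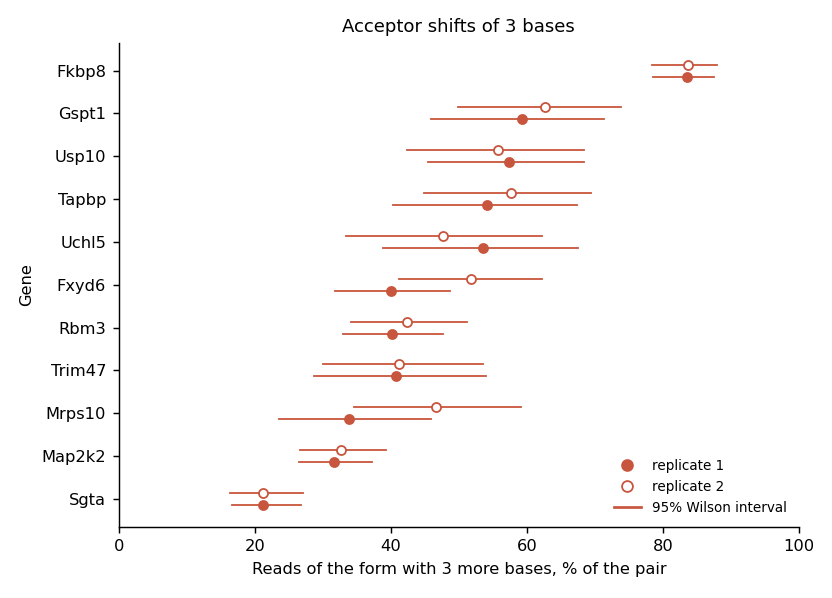
Share of the form with 3 more bases (x axis, % of the pair's reads) in 11 of the 12 genes with a 3-base acceptor shift (y axis), with filled circles for replicate 1, open circles for replicate 2 and bars for 95% Wilson intervals. Fkbp8 lies highest and Sgta lowest, and in all 11 genes the bars of the 2 libraries overlap.

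The other 9 acceptor shifts were of 4 to 101 nt. Myh1, the myosin heavy chain of fast IIX fibres, had the most reads among them, with 4691 and 1761 for Myh1-203 and 675 and 312 for Myh1-201, which lacks 4 bases of the 5′ UTR. This event lies nearest to the start of its transcript, at 1.776% of the length. Anapc5, a subunit of the anaphase-promoting complex, had 165 and 132 reads with 39 more bases and 96 and 104 without. Strn4, a striatin of a phosphatase complex, had 44 and 48 reads with 21 more bases and 43 and 38 without. Ryk, a receptor for Wnt ligands, had 40 and 31 reads with 9 more bases and 32 and 23 without. Rbm39, a splicing coactivator of the RNA-binding list, had 55 and 56 reads with 18 more bases and 45 and 32 without. In these 4 genes the longer form had more reads in both libraries, at 53.19% to 59.58% of the pair. In Strn4 the lead was only 1 read in replicate 1. Wilson intervals of Strn4 and Ryk reached across 50% in each library, as did those of Anapc5 in replicate 2 and Rbm39 in replicate 1. In these cases neither form can be called the higher. Psap, the precursor of the saposins, and Rxrb, a retinoid X receptor, carried the longer form in 40.98% (6 nt) and 43.25% (12 nt).

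Vegfb, a growth factor of the VEGF family, was the 1 coding event of 53 whose length was not a multiple of 3. Vegfb-201 uses an acceptor 101 nt further upstream and ends at a different stop, with 621 coding nt against 564 in Vegfb-202. Vegfb-202 had 60 and 51 reads and Vegfb-201 had 25 and 25, so the shorter coding form was the higher in both libraries (second share 31.15% ± 2.46). The 2 proteins of this gene are known to differ in their C-terminal ends and in binding to the cell surface.

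Serbp1, an mRNA-binding protein, had the most even pair, with 67 and 49 reads for Serbp1-211 and 64 and 51 for Serbp1-203, which adds 18 bases at an acceptor. Serbp1-207 and Serbp1-201 also passed the minimum of reads, with 62 and 45 and with 49 and 43, and both add 45 bases at the acceptor of the next intron. The 4 transcripts are thus the 4 combinations of 2 acceptor choices, and each held between 21.56% and 26.87% of their joint reads. The 18 bases were carried by 48.85% and 51.00% of reads without the 45 bases and by 44.14% and 48.86% of reads with them. The 95% Wilson intervals of these shares overlap in each library, so no dependence between the 2 choices was detectable at this depth.

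The 6 alternative donors differed by 9 to 254 nt and had a median second share of 36.38%. Cnbp, a zinc-finger protein that binds nucleic acids, had 443 and 549 reads for Cnbp-208 and 282 and 251 for Cnbp-203, which ends an exon 21 bases earlier. Another Cnbp transcript past the minimum, Cnbp-201, with the longer donor and 3 more bases at the next acceptor, had 263 and 250 reads. Of the reads of the 3 transcripts, Cnbp-208 held 48.56% ± 5.27, Cnbp-203 26.22% ± 3.28 and Cnbp-201 25.21% ± 1.99. Mtch1, a mitochondrial outer-membrane protein of the energy list, had 271 and 170 reads without 51 bases and 203 and 163 with them. Psmd4, the ubiquitin receptor of the proteasome, had 132 and 105 reads without 9 bases and 96 and 73 with them. Atp1b4, a muscle protein related to the beta subunits of the sodium pump, had 182 and 133 reads without 12 bases and 100 and 61 with them. In these 3 genes the shorter form had more reads in both libraries. In Mtch1 the Wilson interval of the longer form's share reached across 50% in replicate 2 (43.62% to 54.30%). Neither form of Mtch1 can thus be called the higher in that library. Kansl2, a chromatin gene outside the lists, had 105 and 77 reads with 102 bases and 64 and 46 without. Cfl2, the muscle cofilin, had 768 and 646 reads for its coding transcript and 45 and 53 for a partner that lacks 254 nt and has no annotated coding sequence.

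The retained introns were in Tmem52, a membrane protein, and Map7d1, a microtubule-associated protein. Tmem52-202, which keeps a 115-nt intron and has no annotated coding sequence, had 99 and 98 reads against 96 and 108 for the spliced Tmem52-201. Map7d1-201 keeps a 96-nt intron that is annotated as coding (2538 coding nt against 2442) and had 53 and 21 reads against 128 and 102 for Map7d1-203. Zc3h14, a zinc-finger protein that binds poly(A), skipped 2 neighbouring exons of 160 and 233 nt together, neither a multiple of 3 but together 393 nt. Its reads were 37 and 42 with both exons and 29 and 21 without them.

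Gnas, the alpha subunit of the stimulatory G protein, combined 2 choices in 1 event. Gnas-208 carries a 45-nt exon and had 925 and 831 reads, and Gnas-207 skips it, adds TAG at the next acceptor and had 355 and 302. Reads of all transcript models that span the region were then sorted by both choices. The exon without the TAG was carried by 1176 and 983 reads, the TAG without the exon by 370 and 319, and neither by 151 and 149. The exon together with the TAG was found in 0 reads of either library. The TAG thus stood at 71.02% (95% Wilson interval 66.98% to 74.75%) and 68.16% (63.81% to 72.22%) of reads that skip the exon. Of the reads that keep the exon it stood at 0%, and a count of 0 allows shares of up to 0.255% and 0.305%, from 3 counts of the total. The 3 forms were thus ordered alike in both libraries. Rbm42, an RNA-binding protein, also joined a 66-nt exon with a 21-nt acceptor shift, and had 57 and 48 reads with both stretches and 20 and 25 with neither.

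The reading frame was kept by nearly all of the events. In 53 of the 58 genes the event lay in coding sequence, and 52 of these 53 differences were a multiple of 3, the exception being Vegfb. In 3 genes, Myh1 and Mfn2 among them, the event lay in the 5′ UTR and left the coding length unchanged, and in 2 (Cfl2 and Tmem52) the partner had no annotated coding sequence. In 55 genes the 2 transcripts shared their start and stop codons. The longer form was the more abundant in 32 of the 55 genes whose forms differ in length. The events lay at a median of 37.89% of the transcript length, from Myh1 at 1.776% to Mars at 89.06%. The 58 genes were spread over 19 chromosomes.

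Whether the libraries differed in these choices was tested for all 207 pairs with a two-sided Fisher exact test and Benjamini-Hochberg adjustment over the 207. A call needed a difference of at least 10 points and an adjusted p below 0.05. Of all pairs 4 (1.93%) were called, and of the 58 genes that differed inside only, 1 was called, Smyd1. Without adjustment, 5 of the 58 had an exact p under 0.05, beside 26 of all 207 pairs. The median absolute difference between the libraries was 3.318 points in the 58 genes and 3.810 over all pairs. Of the 58, 50 differed by less than 10 points, and in 55 the 95% Wilson intervals overlapped. The counts of 50 and 55 are not given for all pairs.

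**Figure D4:**
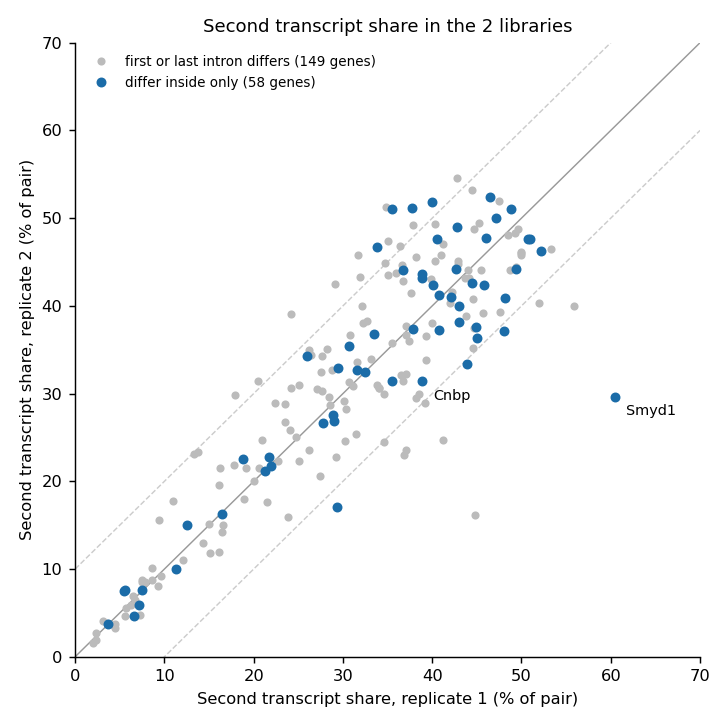
Second transcript share in replicate 1 (x axis, % of the pair) against replicate 2 (y axis, %), with the 58 genes that differ inside only in blue, the other 149 pairs in grey, a solid line at equal shares and dashed lines 10 points away. Smyd1 lies at 60.47% and 29.59%, far below the dashed line, while Cnbp lies within it.

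Smyd1-201, with the 39-nt exon, had 68 reads in replicate 1 and 69 in replicate 2, and Smyd1-202, without it, had 104 and 29. The form without the exon was thus the higher in replicate 1 and the lower in replicate 2. Its share was 60.47% (95% Wilson interval 53.01% to 67.47%) in replicate 1 and 29.59% (21.46% to 39.26%) in replicate 2, a difference of -30.87 points (replicate 2 minus replicate 1; Fisher exact test p = 1.244e-06, Benjamini-Hochberg adjusted p = 6.438e-05). Smyd1-202 stood at 90.79 and 30.79 CPM and Smyd1-201 at 59.36 and 73.26 CPM, so the form without the exon moved most. Both forms are known in striated muscle, and 13 codons separate them. Whether the difference belongs to the animals, the tissue pieces or the libraries was not tested. The libraries also differed in the levels of other muscle genes, in both directions. Myh1 stood at 7757 and 4016 CPM over all its models, the calcium pump Atp2a1 at 82292 and 63671, and troponin C Tnnc2 at 14850 and 21256. The part of such differences in the Smyd1 result was not tested.

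Cnbp had the next smallest p. Its second share was 38.90% in replicate 1 and 31.38% in replicate 2 (Fisher exact p = 0.002185, Benjamini-Hochberg adjusted p = 0.04715), under the 10 points set for a call. When reads of all models that span the donor were counted, the shares were 36.94% and 33.14%, with an adjusted p of 0.5339 in the same exact test. The intervals of Myh1 also lay apart, at 12.58% (11.72% to 13.49%) and 15.05% (13.58% to 16.65%), with an exact adjusted p of 0.1012. The other 2 genes with an unadjusted exact p under 0.05 were Puf60 (37.77% and 51.14%, adjusted p = 0.1683) and Map7d1 (29.28% and 17.07%, adjusted p = 0.2464). The largest difference after Smyd1 was in Rxrb (35.48% and 51.02%, 111 reads in all, exact adjusted p = 0.6366).

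Each event was also counted over every model that spans it, the chosen pair included. Over reads of all transcript models, unannotated ones included, 254 events of all pairs had 20 or more spanning reads in each library, and 3 (1.18%) were called by the same exact test and limits. Of the 3, 1 was among the 58 genes, again Smyd1, at 61.58% and 31.13% (Fisher exact test, Benjamini-Hochberg adjusted p = 6.553e-05). Almost all of those Smyd1 reads are the reads of the pair, since other models gave only 5 and 8 spanning reads. Counting all models moved the second share by a median of 0.593 points over the 58 genes, and by less than 10 points in 57, a count in which the reads of the pair themselves take part.

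With the 2 chosen transcripts left out altogether, 29 of the 58 genes still had 20 or more spanning reads in each library. The second form's share in those reads lay within 10 points of its share in the pair in 24 of the 29, above it in 10 and below it in 19, with a median absolute shift of 4.12 points. Pkm is an example of close values, with the M2-type exon at 4.662% in other models and 3.738% in the pair. Anxa6 is another, with skipping of the 18-nt exon at 22.77% and 22.30%. The 5 genes with larger shifts were Map7d1, Gnas, Puf60, Tmem52 and Nfix. In Map7d1 the retained intron was carried by 50.42% and 53.70% of 595 and 324 other reads, against 29.28% and 17.07% of the pair. The form with more reads in the pair therefore had fewer in the other models of this gene in both libraries, though only narrowly in replicate 1. In Gnas the form of Gnas-207 held 7.849% of other reads against 27.19% of the pair, and in Puf60 the form without the exon held 27.55% against 44.45%. The order of the forms also turned in Nfix (54.52% against 44.51%).

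**Figure D5:**
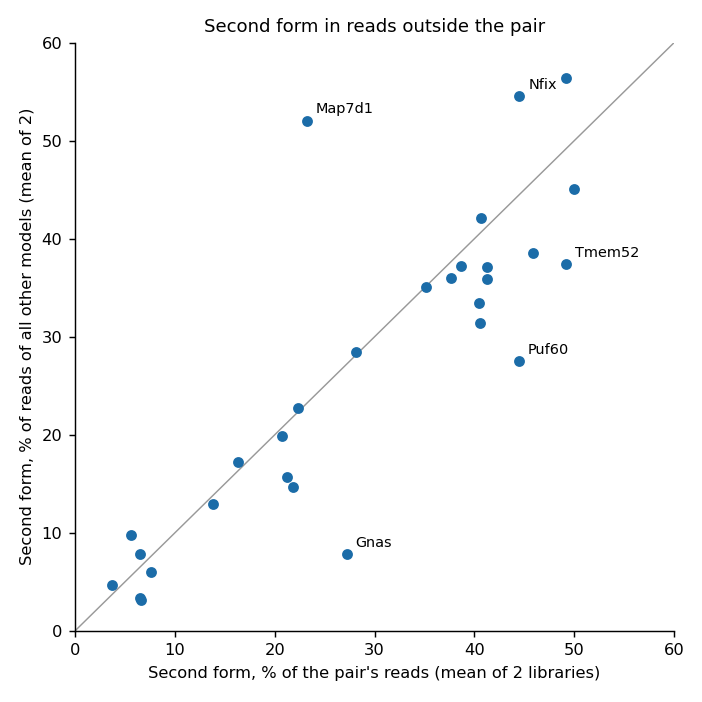
Second form as a share of the pair's reads (x axis, %, mean of 2 libraries) against its share in reads of all other transcript models (y axis, %, mean of 2 libraries) for the 29 genes with 20 or more such reads in each library. Most points lie near the line of equal shares; Map7d1 stands above it at 52.06% and Gnas below it at 7.849%.

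Of the 58 genes, 17 stood in 1 of 8 lists of muscle and housekeeping functions and 41 in none. The list of energy metabolism and mitochondria held 5 (median second share 6.481%), RNA binding and splicing 4 (34.38%), signalling 3 (Aplp2, Gnas and Ndrg2, 20.71%) and vesicle traffic 2 (Ap2a1 and Arfgap2, 38.55%). Contractile genes, cytoskeleton and transcription gave 1 each (Smyd1, Cttn and Nfix), and calcium handling gave 0 although 3 of its 28 genes had a pair. Of the 4 RNA-binding genes with a pair, all 4 differed inside only, and none of these 17 genes other than Smyd1 was called between the libraries. A further list of 65 genes, known from the literature for internal splicing in muscle, gave 6 members: Cttn, Gnas, Nfix, Pkm, Slc25a3 and Smyd1. Of the rest, 5 had a pair that differed at an end, among them Tpm3, a slow-fibre tropomyosin, and Mef2c, a muscle transcription factor, and 54 had no pair. Among those 54, 36 had at least 40 reads in each library, and in them a median of only 22.40% of reads lay on annotated spliced transcripts. Troponin T Tnnt3, the calcium pump Atp2a1 and the T-tubule gene Bin1 are in this last group, so their absence from the 58 genes is no measure of their splicing. The tropomyosins Tpm1 (97.91% and 96.96% in replicates 1 and 2) and Tpm2 (92.93% and 92.13%) are among the 36 too. Nearly all their reads lay on annotated spliced transcripts, but only 1 transcript of each passed the minimum.

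Near the minimum of 20 reads, the members just inside were Uchl5 (20 and 22 reads for its second transcript), Rbm42 (20 and 25) and Zc3h14 (29 and 21). The genes just outside were Tecr (25 and 19 reads), Rnf14 (26 and 19) and Nrap (27 and 19), each of which had an internal difference and missed the minimum by 1 read in replicate 2.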

How the data were processed

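Long-read RNA sequencing was done on total RNA of 2 gastrocnemius samples, 1 library each. The authors deposited counts of reads per transcript model, and per the files' own descriptions the models were built with TALON on mm10 against GENCODE M21; which aligner was used, and which versions, is not given in the sources used here. Per the labels, the 2 libraries name different releases of the pipeline document, so release and sample cannot be told apart. From the counts, pairs, shares of the pair, Wilson intervals and two-sided Fisher exact tests with Benjamini-Hochberg adjustment were computed with Python 3.11.15, scipy 1.17.1 and pandas 2.3.3. The 2 libraries were not pooled except to rank transcripts by summed reads. A reads-per-event count used every model whose introns match 1 of the 2 forms. The test was checked on simulated data drawn with counting error alone, so the check does not cover spread between real libraries. Named genes are the 20 with the most pair reads, the 12 with the highest second share, called genes, cassette exons of 30 nt or less, exclusive exons, retained introns, list members and genes next to the minimum. Puf60, Ryk, Rxrb, Psap, Vegfb and Kansl2 fall outside this rule, like Fez2, Fbln2 and some genes with 3-base shifts, and were named with their values known. The members and lists were chosen with earlier results of these data known. Alternatives varied the minimum of reads, the libraries, the denominator and the limits of a call. The labels number the males separately but give both the same donor identifier, so the SD over 2 libraries may not be that between separate animals, and the Fisher tests cover counting error of reads and estimate no spread between samples. Values of 2 members and the sequence of another event are not reported here, although counts over the 58 genes include them.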

Additional observations from a re-analysis of the deposited data

How the results depend on the processing

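The number of genes that differed inside only followed the minimum of reads. With 10 reads there were 136 genes (all 58 among them), with 61 single cassette exons, 124 differences that were a multiple of 3 and a median second share of 35.30%. With 50 reads there were 20 genes (all among the 58), with 7 single cassette exons, 18 multiples of 3 and a median of 34.29%. With 20 CPM there were 56 genes (51 shared) and the median was 38.14%, and with all reads of the gene as the denominator it was 27.58%. With 1 library left out, each list held all 58 genes: 67 to 87 genes, 25 to 39 single cassette exons, 62 to 80 multiples of 3 and medians of 36.84% to 37.87%. The share of all pairs that differed inside only stayed between 27.40% and 29.19% over these settings. The overlap with the 58 genes was largely fixed in advance for 10 reads, for 50 reads and with 1 library left out. A looser minimum keeps every transcript that passed a stricter one. The count of pairs called between the libraries was 0 with 50 reads, since the 29 reads of Smyd1-202 in replicate 2 took Smyd1 out of the test, and 2 (Cnbp and Smyd1) with a limit of 5 points or with no limit. It was 1, Smyd1, with 10 reads and with all other reads of the gene as the partner, and over all models it was 1 in the 3 alternatives run. No paired analysis was possible because the series holds a single group. Depth limits the rest: pairs held as few as 85 reads (Uchl5), whose second share of 46.51% in replicate 1 had a 95% Wilson interval of 32.51% to 61.08%. Reads on unannotated models could not make a gene a member.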
